A study of Mus musculus with 5 samples.

Results

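The Ikaros family comprises 5 genes, Ikzf1 to Ikzf5, and Runx3-bound and H3K4me1-marked regions were examined at each of them. A region was taken where it overlapped the gene body (GENCODE vM1, mm9) extended by 50 kb on each side. This gave 14 of the 9135 Runx3-bound regions and 40 of the 18992 H3K4me1-marked regions in the lists. Both lists came from ChIP-seq of CD8+ T cells (CD8-TC) taken from the spleens of ICR mice, wild type per the paper's methods. The cells had been selected on anti-CD8 magnetic beads to at least 95% purity, TCR-activated for 2 days with anti-CD3e and anti-CD28, and kept for 4 days in 100 u/ml IL-2. The 5 libraries were 2 with anti-Runx3 antibody, 2 with NIS (non-immune rabbit serum) as control and 1 with anti-H3K4me1 antibody. No genotype or treatment arm was compared in them, and the age and number of the mice were not given in the sources used here.

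Peaks had been called on joined reads, so a region has no replicate error and no height, and its read depth is unknown. All values below are therefore descriptions of called regions, set beside the same value for all regions or all 22367 protein-coding genes, without a test. The lists were made from many cells, so it cannot be told whether Runx3 and H3K4me1 at a locus were on the same chromosome copies. The gene windows of neighbouring genes overlap, and long genes have long windows. The labelled cell type was checked by H3K4me1-marked regions within 5 kb of marker genes. All 7 T cell markers had such a region (Cd3d, Cd3e, Cd3g, Cd8a, Cd8b1, Cd2 and Cd5). Of the B cell markers, Cd79a and Pax5 had one and Cd79b, Ms4a1 and Blnk had none. Of the myeloid or dendritic cell markers 1 of 5 had one (Itgax), whereas Csf1r, Lyz2, Cd14 and Emr1 had none.

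Ikaros family proteins are zinc finger transcription factors best known from lymphocytes. In Ikaros, fingers near the amino end bind DNA with a GGGAA core, and fingers at the carboxyl end join family members to each other. Ikaros acts in large part through chromatin complexes such as NuRD, which combines nucleosome remodelling with histone deacetylation. Ikzf1 encodes Ikaros, which is needed for lymphocyte development and restrains T cell activation. Ikzf3 encodes Aiolos, best known in B cells, Ikzf2 encodes Helios and Ikzf4 encodes Eos, both known from regulatory T cells, and Ikzf5 encodes Pegasus, the most divergent member. Runx3 belongs to the RUNX factors, which bind DNA through a Runt domain, and acts in CD8-TC and NK cells. H3K4me1 (monomethylation of lysine 4 of histone H3) is abundant at enhancers.

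The sequences that Runx3-bound regions of the family hold are shown first, since the RUNX motif is the feature by which the loci can be compared base by base. For each member the region over the gene body with the most RUNX motifs was taken. Within it, the stretch of at most 200 bases outside exons with the highest number of them is shown. Regions are numbered within a locus in the direction of transcription, and each sequence is given 5′ to 3′ on the strand of the Ikaros family gene. Capitals mark RUNX motifs, that is TGTGGT or TGTGGC, likewise TGCGGT or TGCGGC, on either strand. Read on the shown strand, a motif of the opposite strand such as TGTGGT appears as its reverse complement ACCACA. Overlapping matches were counted separately.
Ikzf1 region 5, chr11:11666272-11666471, plus strand: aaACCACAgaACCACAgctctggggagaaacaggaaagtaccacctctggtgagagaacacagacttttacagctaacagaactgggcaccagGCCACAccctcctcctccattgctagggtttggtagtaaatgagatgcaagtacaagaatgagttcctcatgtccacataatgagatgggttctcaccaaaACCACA
Ikzf2 region 1, chr1:69590980-69591179, minus strand: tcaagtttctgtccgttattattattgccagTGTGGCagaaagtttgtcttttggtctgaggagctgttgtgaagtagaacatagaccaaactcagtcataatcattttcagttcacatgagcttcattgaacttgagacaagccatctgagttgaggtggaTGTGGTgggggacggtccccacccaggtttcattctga
Ikzf3 region 2, chr11:98358541-98358740, minus strand: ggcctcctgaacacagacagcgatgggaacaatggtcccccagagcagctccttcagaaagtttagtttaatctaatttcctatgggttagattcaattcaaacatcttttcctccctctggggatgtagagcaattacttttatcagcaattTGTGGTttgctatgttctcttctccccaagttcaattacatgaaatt
Ikzf4 region 1, chr10:128074168-128074367, minus strand: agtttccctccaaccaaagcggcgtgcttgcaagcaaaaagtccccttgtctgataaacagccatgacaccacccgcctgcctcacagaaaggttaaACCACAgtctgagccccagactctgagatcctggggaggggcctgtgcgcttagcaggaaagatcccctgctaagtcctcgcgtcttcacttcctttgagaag
Ikzf5 region 1, chr7:138554302-138554459, minus strand: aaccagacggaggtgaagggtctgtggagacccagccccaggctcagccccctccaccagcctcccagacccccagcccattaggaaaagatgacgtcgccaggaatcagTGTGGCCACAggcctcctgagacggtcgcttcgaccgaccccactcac

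The Ikzf1 stretch carries 4 motifs, all on the opposite strand, the first 2 of them with 2 bases between. That of Ikzf2 carries TGTGGC and TGTGGT on the shown strand, and those of Ikzf3 and Ikzf4 carry 1 motif each. The Ikzf5 stretch holds 2 of the 4 motifs of its region, TGTGGC and its reverse complement GCCACA, which overlap in a short palindrome. This last stretch lies in the first intron of the neighbouring gene Acadsb.

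Ikzf1 and Ikzf3 held most of the regions. Together they had 11 of the 14 Runx3-bound and 37 of the 40 H3K4me1-marked regions, whereas Ikzf2, Ikzf4 and Ikzf5 had 3 and 3. Each of the 5 genes had a Runx3-bound region in its window, compared to 47.9% of protein-coding genes. An H3K4me1-marked region was found at 4 of 5, all but Ikzf5, compared to 52.2% of protein-coding genes. A Runx3-bound region that overlapped H3K4me1 was found at 2 of 5, Ikzf1 and Ikzf3 (28.0% of protein-coding genes). A Runx3-bound region touched the gene body itself at 5 of 5 (18.0% of protein-coding genes), and at Ikzf5 it did so at the first exon. The median window was 181 kb for the members and 115 kb for all genes, and the part of window length in these shares was not tested.

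**Figure D1:**
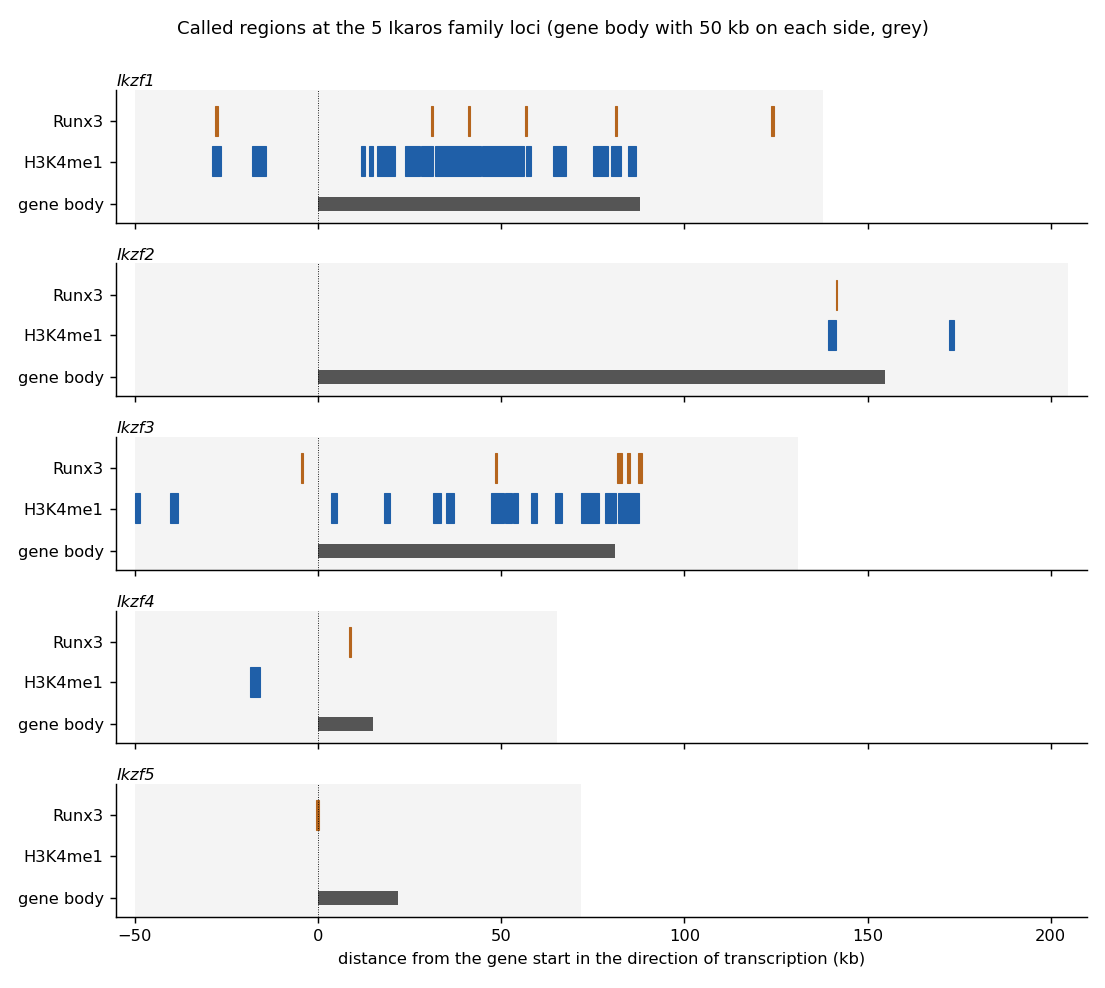
Runx3-bound (brown) and H3K4me1-marked (blue) regions at the 5 genes. The x axis is the distance from the gene start in kb, with transcription to the right, the grey bar is the gene body and the shaded area is the window. Blue regions cover 59.0% of the Ikzf1 and 31.7% of the Ikzf3 gene body and are sparse or missing at the other 3 genes. The brown region of Ikzf5 sits at the gene start.

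Ikzf1 (ENSMUSG00000018654.10, chromosome 11, 11585006 to 11672929, plus strand) had 6 Runx3-bound and 22 H3K4me1-marked regions in a window of 188 kb. At least as many Runx3-bound regions were found at 1.64% of protein-coding genes, and at least as many H3K4me1-marked regions at 0.215%. The second count depends on how marked sequence was divided by peak calling. With regions closer than 1 kb merged, the 22 became 8, and the share of genes with as many was then not determined. Per 100 kb of window, to allow for length, there were 3.19 Runx3-bound regions (at least this at 4.35% of genes) and 11.7 H3K4me1-marked regions (0.384% of genes). H3K4me1 covered 30.7% of the window, reached by 0.215% of genes, and 59.0% of the gene body. Ordered by Runx3 density, Ikzf1 was followed by Ikzf3 (2.76), Ikzf4 (0.868), Ikzf5 (0.821) and Ikzf2 (0.393). Without replicate error it cannot be told which neighbours in this order differ.

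The H3K4me1-marked regions of Ikzf1 lay close together. Of the 22 regions 19 touched the gene body, and 16 of these lay in introns alone. When regions with less than 1 kb between them were joined into chains, 10 of them formed 1 chain of 34.4 kb (11608654 to 11643084), of which 95.2% was marked. Of the 14899 chains in the genome 4 were at least this long, itself included, and 3 had at least as many regions. The widest region of the locus (11620148 to 11629599, 9452 bp, intron) lay in this chain, and 27 of all 18992 H3K4me1-marked regions were at least as wide. The next were 4331 bp wide (11608654 to 11612984, intron) and 4042 bp wide (11660202 to 11664243, coding exon and UTR). The furthest upstream gene start of Ikzf1 was not marked, and the nearest H3K4me1-marked region lay 11.8 kb from it. A later annotated transcript start of the gene was 0.267 kb from a marked region.

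Of the 6 Runx3-bound regions at Ikzf1, 4 lay in introns of Ikzf1 itself. Region 1 (11557038 to 11557671, 634 bp) lay 27.7 kb upstream of the gene start in an intron of the lincRNA Gm11999, with 2 RUNX motifs near its centre. Region 2 (11615798 to 11616459, 662 bp, 3 RUNX motifs), region 3 (11625962 to 11626411, 450 bp, 1 motif) and region 4 (11641578 to 11642192, 615 bp, 3 motifs) all lay inside the 34.4 kb chain. These 3 were centred 31.1, 41.2 and 56.9 kb downstream of the start. Region 5 (11666124 to 11666666, 543 bp, 4 motifs), whose sequence is given above, lay 81.4 kb downstream of the start. Region 6 (11708670 to 11709435, 766 bp, 3 motifs) covered UTR sequence of Fignl1, 0.087 kb from its start and 36.1 kb beyond the end of Ikzf1, and was the region of this locus without H3K4me1. The Runx3-bound region nearest to any annotated Ikzf1 transcript start was centred 15.9 kb from it.

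Ikzf3 (ENSMUSG00000018168.8, chromosome 11, 98326216 to 98407345, minus strand) had 5 Runx3-bound and 15 H3K4me1-marked regions in a window of 181 kb. As many or more were found at 3.3% and 0.836% of protein-coding genes. The densities were 2.76 Runx3-bound regions per 100 kb (at least this at 7% of genes) and 8.28 H3K4me1-marked regions per 100 kb (1.87% of genes). H3K4me1 covered 19.6% of the window (1.11% of genes) and 31.7% of the gene body. Ikzf3 thus had the marked gene body of Ikzf1 in a sparser form, but a different arrangement of Runx3.

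At Ikzf3, 12 H3K4me1-marked regions touched the gene body, and 11 of these held no Runx3. The only Runx3-bound region in the gene, region 2 (98358541 to 98359093, 553 bp), lay in an intron 48.5 kb downstream of the start, wholly inside the second widest marked region of the locus (98356463 to 98359991, 3529 bp). The other Runx3-bound regions lay outside the gene body. Region 1 (98411297 to 98411952, 656 bp) was 4.28 kb upstream of the Ikzf3 start but 0.787 kb from that of Zpbp2, a sperm-related gene transcribed in the opposite direction. It overlapped no H3K4me1-marked region, and the nearest was 7.46 kb away.

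A group of 3 Runx3-bound regions lay just beyond the 3′ end of Ikzf3, within 6.83 kb (98318913 to 98325747). Region 3 (98324399 to 98325747, 1349 bp) was centred 1.14 kb beyond the gene end and was the widest Runx3-bound region of the family, with 21 of all 9135 at least as wide. Region 4 (98322236 to 98322984, 749 bp) and region 5 (98318913 to 98319886, 974 bp) were centred 3.61 and 6.82 kb beyond the gene end. All 3 touched 1 H3K4me1-marked region (98319775 to 98325399, 5625 bp), the widest of the locus. A marked region with at least 3 Runx3-bound regions was found 22 times among 18992. The third widest (98325866 to 98329027, 3162 bp) covered the coding exon and UTR at the end of Ikzf3, 0.118 kb from region 3. By distance between starts the group was nearer to Grb7, which encodes a signalling adaptor, than to the Ikzf3 start. When only regions nearest to the start of a member were kept, Ikzf3 retained 1 Runx3-bound region and 5 H3K4me1-marked regions.

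Ikzf2 (ENSMUSG00000025997.7, chromosome 1, 69577788 to 69732534, minus strand), the longest of the 5 genes at 155 kb, had few regions. It held 1 Runx3-bound and 2 H3K4me1-marked regions in a window of 255 kb, a window length reached by 6.04% of genes. This gave 0.393 Runx3-bound regions per 100 kb, and at least this density was found at 46.7% of genes. H3K4me1 covered 1.3% of the window, with at least this at 41.8% of genes. Runx3 was bound in an intron 141.5 kb downstream of the start (69590799 to 69591212, 414 bp), the narrowest Runx3-bound region of the family. It ended 0.054 kb short of the wider marked region (69591267 to 69593262, 1996 bp), which was also intronic. The other marked region (69558970 to 69560273, 1304 bp) was intergenic, beyond the gene end. From the Ikzf2 start the nearest Runx3-bound region was 83.1 kb and the nearest H3K4me1-marked region 82.0 kb away, both upstream of the window.

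Ikzf4 (ENSMUSG00000002578.8, chromosome 10, 128067899 to 128083047, minus strand) had 1 Runx3-bound region and 1 H3K4me1-marked region, which did not meet. Runx3 was bound in an intron 8.80 kb downstream of the start (128073990 to 128074494, 505 bp), and its region held 1 RUNX motif and 3 ETS motifs. The marked region (128098927 to 128101643, 2717 bp) was intergenic, 24.4 kb from the Runx3-bound region, and nearer to the start of Suox than to that of Ikzf4. The Ikzf4 gene body thus held a Runx3-bound region but no called H3K4me1-marked region. Its Runx3 density of 0.868 per 100 kb was reached by 34.8% of genes.

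Ikzf5 (ENSMUSG00000040167.9, chromosome 7, 138532166 to 138554035, minus strand) was the only member with Runx3 at its start. A Runx3-bound region centred within 1 kb of the gene start was found at 1 of 5 members, compared to 8.83% of protein-coding genes. The region (138553821 to 138554459, 639 bp) was centred 0.105 kb upstream of the Ikzf5 start. It covered UTR of Ikzf5 as well as UTR and coding exon of Acadsb, an acyl-CoA dehydrogenase gene that is transcribed away from Ikzf5 and whose start was 0.025 kb from the centre. The 2 genes share this start region, so the region cannot be assigned to either. An annotated transcript of Fgfr2 also spans the locus in this annotation. Ikzf5 had no H3K4me1-marked region in its window, and the nearest to the Runx3-bound region was 355 kb away. Runx3 without any H3K4me1 in the window was found at 1705 genes (7.62%).

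**Figure D2:**
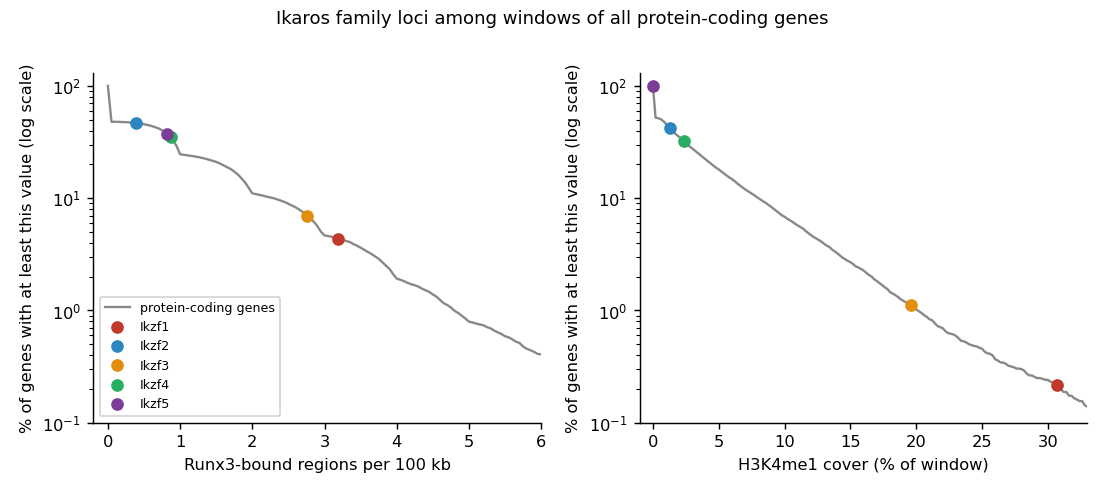
Share of 22367 protein-coding genes (y axis, percent, log scale) with at least the value on the x axis, for Runx3-bound regions per 100 kb (left) and H3K4me1 cover in percent of the window (right). Points are the 5 members. Ikzf1 (3.19 per 100 kb and 30.7%) and Ikzf3 (2.76 per 100 kb and 19.6%) lie far down the curves, whereas Ikzf2, Ikzf4 and Ikzf5 lie where 32% or more of genes have as much.

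Overlap of the lists was then followed region by region. Of the 14 Runx3-bound regions, 9 (64.3%) met an H3K4me1-marked region, against a share of 57.3% in the whole Runx3 list. The 95% Wilson interval, which covers counting error among regions only, ran from 38.8 to 83.7%. The centre was marked in 8 (57.1%), compared to 46.3% of all. Conversely, Runx3 was found in 8 of 40 H3K4me1-marked regions (20%, interval 10.5 to 34.8%), compared to 29.2% of all. Both intervals include the share of the whole list, but they are wide. The intervals here and below take regions as independent, which neighbouring regions are not. Ikzf1 and Ikzf3 gave 11 of the 14 Runx3-bound and 37 of the 40 H3K4me1-marked regions. The intervals therefore cannot tell whether the family differs from the whole lists. A transcript start lay within 1 kb of the centre of 3 regions (21.4%), those at Fignl1, Zpbp2 and Ikzf5 with Acadsb, compared to 26.3% of all. None of these 3 overlapped H3K4me1. The share of overlap among all Runx3-bound regions near a start was not determined, so this cannot be called a trait of these loci.

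Most of the overlapping regions lay at the ends of H3K4me1-marked regions. Of the 9 regions 6 were marked over part of their length only, that is a boundary of a marked region fell inside them, which is 42.9% of the 14 (interval 21.4 to 67.4%) compared to 22.6% of all Runx3-bound regions. Among all 5234 overlapping regions the share with a boundary was 39.4%. This feature was chosen after the values were seen. Ikzf1 region 1 spanned a gap of 64 bp between neighbouring marked regions and was marked over 89.9% of its length. Ikzf1 regions 2, 4 and 5 reached into gaps of 428, 430 and 187 bp, and were marked over 97.6, 66.7 and 97.1%. Ikzf3 region 3 reached into a gap of 466 bp (74.2% marked), and Ikzf3 region 5 into the unmarked sequence beyond the chain (11.5% marked). Ikzf1 region 3 and Ikzf3 regions 2 and 4 were marked throughout. The positions of these boundaries are those set by peak calling.

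**Figure D3:**
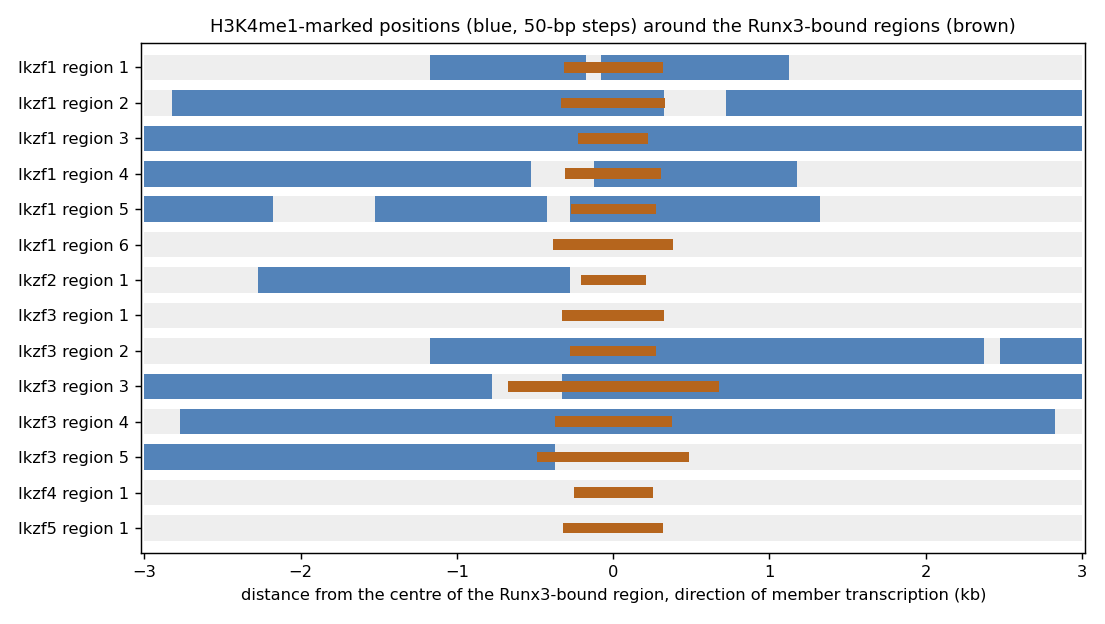
H3K4me1-marked positions (blue) within 3 kb of the centre of each of the 14 Runx3-bound regions (brown bars, true width), 1 row per region. The x axis is the distance from the centre in kb in the direction of transcription of the Ikaros family gene. At Ikzf1 regions 1, 2 and 4 and Ikzf3 regions 3 and 5 a blue boundary falls within the brown bar, at Ikzf1 region 2 only just. The boundary inside Ikzf1 region 5 is too near its end to show at the steps drawn. In 5 rows there is no blue under the bar.

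RUNX motifs were present in 13 of the 14 Runx3-bound regions (92.9%, interval 68.5 to 98.7%), compared to 92.6% of all. The exception was Ikzf3 region 1 near Zpbp2. There were 43 motifs in all, with a median of 2.5 per region (2 in all Runx3-bound regions) and 4.22 per kb (3.99 in all). The median width was 636.5 bp at the family and 521 bp in all, and a wider region has more room for a motif. TGTGGT occurred in 11 regions (78.6%, 69.6% of all), TGTGGC in 8 (57.1%, 45.7% of all), TGCGGT in 4 (28.6%, 20.8% of all) and TGCGGC in 2 (14.3%, 16.3% of all). The Ikzf5 region had no TGTGGT, and held 3 TGTGGC and 1 TGCGGT. In the central 200 bp, RUNX motifs were found in 8 regions (57.1%, interval 32.6 to 78.6%), compared to 78.7% of all. The central 200 bp of Ikzf1 regions 3 and 6, Ikzf3 regions 1, 2 and 5 and the Ikzf5 region had none.

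The region with the most RUNX motifs, Ikzf3 region 3, had 13, of which 10 were TGTGGT. Of all 9135 Runx3-bound regions 14 had at least as many. The 200 bases with the highest number of these motifs, 6 of the 13, are printed to show where they lie, with RUNX motifs in capitals.
Ikzf3 region 3, chr11:98324725-98324924, minus strand: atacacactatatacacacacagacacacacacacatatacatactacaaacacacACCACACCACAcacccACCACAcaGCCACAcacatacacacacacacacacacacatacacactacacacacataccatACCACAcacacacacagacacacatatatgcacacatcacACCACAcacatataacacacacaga

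This stretch is rich in CA repeats, with A and C making up 88.0% of its bases, and its 6 motifs arise where the repeat reads ACCACA or GCCACA. By a rule added after this was seen (A and C, or G and T, at least 80% of the 50 bases around a match), 9 of the 13 matches of Ikzf3 region 3 lay in such sequence and 4 outside it. Over the family the numbers were 10 of 43 in and 33 outside, compared to 2.83% of the matches in all Runx3-bound regions. All 13 regions with a RUNX motif retained 1 or more outside. Outside these stretches 1573 of all regions had at least 4 motifs. Per kb, 356 of all 9135 regions had at least as many RUNX motifs as Ikzf3 region 3 (9.64). The parts of the repeat and of the region's width in its rank were not tested. Ikzf3 region 4, with 5 motifs, had none in such sequence.

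Motifs of other factors were searched in the same regions on both strands. The ETS motif (AGGAAA or AGGAAG, likewise CGGAAA or CGGAAG), bound by a family that includes Ets1, occurred in 14 of 14 regions (100%, interval 78.5 to 100%), compared to 88.9% of all. Ikzf3 region 1, which had no RUNX motif, held the most with 5. The AP-1 motif (TGACTCA or TGAGTCA), bound by Fos and Jun proteins, occurred in 5 (35.7%, interval 16.3 to 61.2%), compared to 13.5% of all. The hexamer TGGGAA, which holds the core bound by Ikaros and overlaps no ETS match at the same GGAA, occurred in 7 (50%, interval 26.8 to 73.2%), compared to 39.1% of all. It was found in 4 of the 6 regions at Ikzf1, in 3 of the 5 at Ikzf3 and in none at Ikzf2, Ikzf4 and Ikzf5. A match describes the letters and not a bound site.

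Pairs of motifs at most 50 bp apart were also counted. RUNX-RUNX pairs occurred in 4 regions (28.6%, 37.4% of all), namely Ikzf1 regions 1 and 5 and Ikzf3 regions 3 and 4. ETS-RUNX pairs occurred in 8 (57.1%, 57.4% of all). AP-1-RUNX pairs occurred in 3 (21.4%, interval 7.57 to 47.6%), compared to 5.78% of all, with gaps of 7 bp in Ikzf1 region 2, 6 bp in Ikzf3 region 4 and 10 bp in the Ikzf5 region. The first and second of these are shown with both motifs in capitals.
Ikzf1 region 2, chr11:11616177-11616216, plus strand: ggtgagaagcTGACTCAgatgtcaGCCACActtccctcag
Ikzf3 region 4, chr11:98322856-98322894, minus strand: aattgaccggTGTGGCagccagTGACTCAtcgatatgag

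In both, the RUNX motif reads TGTGGC or its reverse complement GCCACA and the AP-1 motif reads TGACTCA. The AP-1 motif comes first on the strand of Ikzf1, and the RUNX motif first on that of Ikzf3. This difference comes from the strand shown. Read on the strand with TGTGGC, the RUNX motif comes first in both. The numbers are small, and the pairs shown were chosen for display after they were seen.

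**Figure D4:**
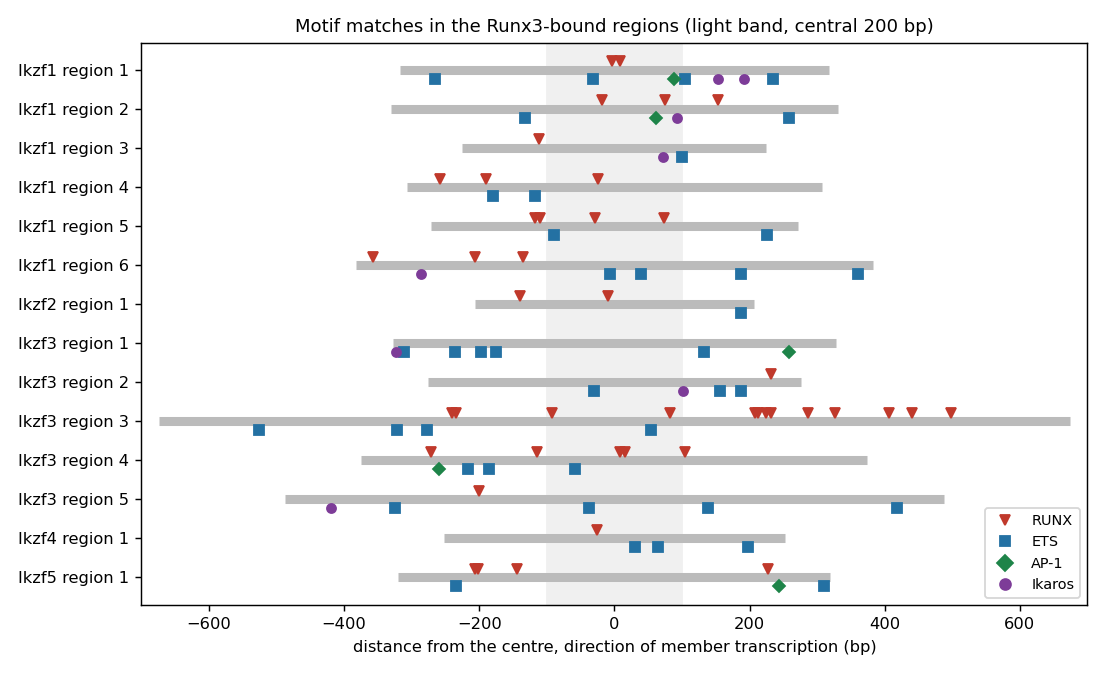
Motif matches in the 14 Runx3-bound regions (grey bars, true width). The x axis is the distance from the region centre in bp in the direction of transcription of the Ikaros family gene, symbols are motif types, and the light band is the central 200 bp. RUNX motifs lie in the band in 8 rows, and Ikzf3 region 3 shows a run of them to the right of its centre.

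The chromatin partners of Ikaros proteins were examined as a list of 17 co-repressor genes, of which all 17 were found in the annotation. The list was chosen with earlier results of these data known, so the shares below are descriptions only. A Runx3-bound region lay in the window of 12, and an H3K4me1-marked region in that of 14, compared to the 47.9% and 52.2% of protein-coding genes given above. In 9 of the 17 genes a Runx3-bound region overlapped H3K4me1, compared to 28.0% of protein-coding genes. The median was 2 Runx3-bound regions per gene and 1.44 per 100 kb, compared to 0.868 per 100 kb at the Ikaros family and 0 at all genes. The median of all genes is 0 because only 47.9% of them had a region. The mean over all genes was 0.774 per 100 kb. Mta3, encoding a NuRD subunit, had the most with 6, all of which overlapped H3K4me1. Mta2 and Gatad2a, also NuRD subunits, and Mbd2, a methyl-CpG binding protein of the complex, had Runx3 within 1 kb of the gene start, which makes 3 of 17 compared to 8.83% of protein-coding genes. Chd4, the remodelling enzyme of NuRD, had 4 Runx3-bound regions, and the deacetylase genes Hdac1 and Hdac2 had 4 and 0. Rbbp7, Sin3b, Ctbp1 and Ctbp2 had none.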

How the data were processed

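ChIP-seq was done on IL-2-activated splenic CD8-TC. Per the paper's methods, the authors aligned reads to mm9 with ELAND, kept unique alignments, pooled the reads of the repeats and ran MACS with NIS as control, scaling the larger read set down. The deposited values were start and end positions in bp for 2 lists, with no score or read number, so spread between repeats and depth per region cannot be given. The paper gives fewer aligned reads for IL-2-activated than for resting CD8-TC. A place without a called region may therefore still carry signal. Uniquely aligned reads leave repeated sequence underrepresented. The extract protocol of the labels names 2 repeats also for H3K4me1, for which 1 library is listed.

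Members and gene lists were chosen with earlier results of these data known. Gene bodies (GENCODE vM1, NCBIM37, which is mm9) were extended by 50 kb and overlap needed 1 bp. Distances ran from region centres to all annotated transcript starts unless a gene start is named. Coordinates count from 1. Motifs were searched on both strands. Named were all Runx3-bound regions of the windows and the 3 widest H3K4me1-marked regions of each. Python 3.11.15, NumPy 2.4.6, SciPy 1.17.1 and matplotlib 3.10.9 were used. Interval and motif functions were checked on 300 simulated cases each, with 0 differences from direct counting. Sequences were read from the mm9 genome. Alternatives were other extensions, the nearest coding gene, width, merging, other overlap rules, motif windows and start definitions. The result for 1 marker gene is not reported here.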

Additional observations from a re-analysis of the deposited data

How the results depend on the processing

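Without replicates or scores these values have no test, and the regions rest on 1 peak calling of unknown depth per region. No paired analysis was possible because peaks had been called on joined reads and no result comes from a test. Of 48 alternative values for 10 summaries, 30 stayed close (counts and cover within 1.5 times, shares within their interval). With gene bodies alone, 8 Runx3-bound regions remained of 14, the median per locus was 1 H3K4me1-marked region (2 as reported) and 1.29% cover (2.36% as reported), and all (100%) of the 8 held a RUNX motif. With 10 kb the medians were 1 and 1.14%. With 100 kb the medians were 3 Runx3-bound (1 as reported) and 4 H3K4me1-marked regions. Keeping only regions nearest to a member's start left 7 Runx3-bound and 24 H3K4me1-marked regions, a median cover of 1.3% and a RUNX motif in 100%, and Ikzf5 then had 0 Runx3-bound regions because the start of Acadsb was nearer. Regions of at least the median width left 26 H3K4me1-marked regions (40 as reported) with a median of 1, and 0 Runx3-bound regions at Ikzf2 and Ikzf4. Merging within 1 kb left 22 H3K4me1-marked regions over the 5 loci (40 as reported). Of these, 8 were at Ikzf1 (22 as reported) and 11 at Ikzf3 (15 as reported). Searching the central 200 bp gave a RUNX motif in 57.1%. On the autosomes alone, 49.4% of genes had a Runx3-bound and 54.3% an H3K4me1-marked region.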

Other observations

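Base composition differed among the Runx3-bound regions of the family. The G and C content was 63.6% in the region at the Fignl1 start, 65.1% in that at the start of Ikzf5 and Acadsb and 66.7% in Ikzf3 region 5, and from 40.5 to 51.9% in the other 11. These values were not set beside those of all Runx3-bound regions, so they cannot be called a trait of these loci. At the Ikzf3 locus, Ormdl3, which encodes an endoplasmic reticulum protein of sphingolipid synthesis, had an H3K4me1-marked region of 2377 bp over its coding exon and UTR (chromosome 11, 98445377 to 98447753) without Runx3, 33.4 kb from the nearest Runx3-bound region.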
